A study of Homo sapiens with 3 samples.

Results

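AP-1 is a family of paired transcription factors, and 10 genes of it and of the wider immediate early response were followed here in RWPE1 cells: JUN, JUNB, JUND, FOS, FOSB, FOSL1, FOSL2, ATF3, EGR1 and IER2. They were chosen by name from the 58037 genes of the count table and found there through their Ensembl identifiers. RWPE1 is a non-tumorigenic human cell line derived from prostate epithelium. Each of the 3 RNA libraries came from 1 genotype: OLFM4-wild type, OLFM4-Knock out and OLFM4-active, with OLFM4 the gene for olfactomedin 4. The study's methods describe GFP reporter lines, made from OLFM4-wild RWPE1 cells with CRISPR/Cas9 plasmids of a knockout (double nickase) or an activation type and kept under puromycin as stable lines or clones, and a GFP sort of cells before bulk RNA was taken. The methods describe the activation plasmids for the OLFM4-wild reporter line as well, and how the library labelled OLFM4-active differed from it is not given in the sources used here. In its results the study names the OLFM4-knockout cells as GFP-sorted and sets them against OLFM4-wild RWPE1 cells. Whether the OLFM4-wild library, the reference in what follows, came from sorted reporter cells is not stated for it separately. Any effect of this on the values was not tested. There is 1 library per genotype and no replicate, so no test between genotypes was possible and each comparison is between libraries. In bulk RNA, fewer cells of a type and less RNA per cell cannot be told apart.

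JUN proteins pair with each other or with FOS proteins through a leucine zipper, and the pair binds DNA at TPA response elements and cAMP response elements. FOS, FOSB, JUN, JUNB, EGR1 and IER2 are immediate early genes, which growth factors and stress switch on within minutes without new protein synthesis, through serum response factor and its ETS partners and through CREB. FOSL1 (FRA-1) and FOSL2 (FRA-2) lack the strong activation domain of FOS and accumulate later, and in squamous and basal epithelia the balance among subunits changes with growth and differentiation.

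The 3 libraries summed to 16309906 counts (OLFM4-wild), 58837147 (OLFM4-knockout) and 23224216 (labelled OLFM4-active). Levels are CPM, counts put on a common depth over TMM-scaled library sizes, and bracketed ranges are exact 95% Clopper-Pearson intervals, which cover counting error only. OLFM4 had 214, 131 and 16 counts in these libraries, or 11.8, 2.55 and 0.670 CPM, so the library labelled OLFM4-active held the least OLFM4, against its label. The basal epithelial markers KRT5, KRT14 and TP63 were high in every library, the lowest value of any being 414 CPM. KRT5 and KRT14 were also past a log2 fold change of 1 in OLFM4-knockout cells against OLFM4-wild, at 1.15 and 1.27 (0.79 and 0.92 with library totals), whereas TP63 was at 0.19, and their part in the values of the 10 genes was not tested. Marker lists of other cell types were low: 4 luminal prostate markers summed to between 4.19 and 8.59 CPM, 4 leukocyte markers summed to between 19.8 and 31.4 CPM, which was nearly all CD68 with CD3E at 0 throughout, 5 fibroblast markers to between 22.9 and 34.0 CPM with LUM at 0, 3 endothelial markers to at most 0.605 CPM and 2 neuroendocrine markers to at most 0.921 CPM.

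The stretches just upstream of 5 of the genes are shown because they hold letters of the motifs of CREB, AP-1 or serum response factor. They run from base -140 to base -21 before the RefSeq start in GRCh38.p14 and contain no annotated exon base. Capitals mark matches to TGACGT (the core of the cAMP response element, ACGTCA on the other strand), to TGACNTCA (the 8-base element that JUN dimers bind) and to the CArG box of serum response factor.
FOS, chr14:75278688-75278807, plus strand: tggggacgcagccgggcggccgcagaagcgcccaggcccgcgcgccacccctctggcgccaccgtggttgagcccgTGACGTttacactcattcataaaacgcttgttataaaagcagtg
FOSB, chr19:45467856-45467975, plus strand: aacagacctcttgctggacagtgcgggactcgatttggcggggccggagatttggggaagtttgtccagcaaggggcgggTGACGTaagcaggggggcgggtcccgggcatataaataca
JUN, chr1:58784068-58784187, minus strand: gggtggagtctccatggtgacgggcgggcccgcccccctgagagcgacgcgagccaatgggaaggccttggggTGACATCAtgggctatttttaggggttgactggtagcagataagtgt
JUND, chr19:18281643-18281762, minus strand: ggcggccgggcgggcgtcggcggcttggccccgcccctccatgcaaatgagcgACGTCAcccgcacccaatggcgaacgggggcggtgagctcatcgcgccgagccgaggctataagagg
EGR1, chr5:138465339-138465458, plus strand: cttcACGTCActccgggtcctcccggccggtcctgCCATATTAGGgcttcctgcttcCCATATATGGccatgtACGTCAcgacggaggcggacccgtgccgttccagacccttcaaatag
In FOS the TGACGT match lay at -64 to -59 and in FOSB at -60 to -55, whereas JUN had TGACATCA at -67 to -60. EGR1 held 2 CArG boxes, at -105 to -96 and at -83 to -74, and 2 ACGTCA matches. Over the 250 bases before each start, searched on both strands, 9 of the 10 genes had an entry, the exception being FOSL1. TGACGT was found in 5 of the 9 (JUND, FOS, FOSB, FOSL2 and EGR1) against 7.10% of 35116 promoters, TGACNTCA in 3 (JUN, JUND and ATF3) against 6.87%, and a CArG box in 1 (EGR1) against 1.16%. The TGACNTCA match of JUND, TGACGTCA at -200 to -193, also holds TGACGT on both strands, and a separate ACGTCA lies at -87 to -82. TGANTCA, the 7-base AP-1 element, was in none of the 9 against 6.57% of all. A match is a description of letters and not of binding. Bases farther upstream than 250 were not searched, so a gene without a match here may hold one there. FOS, FOSB and FOSL2 (-66 to -61) share TGACGT near the same distance from the RefSeq start. For FOSL2 the searched bases lie inside the annotated gene, which begins farther upstream. Any link of these matches to the RNA levels was not tested.

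Among the FOS genes, FOS, FOSB and FOSL1 were higher in both other libraries than in OLFM4-wild cells and FOSL2 was lower. FOS, the founding member, had 5086 counts or 279.9 CPM (272 to 288) in OLFM4-wild cells. It reached 847 CPM (839 to 855) in OLFM4-knockout cells and 571 CPM (561 to 580.2) in the library labelled OLFM4-active. The intervals of the 3 libraries were apart, with OLFM4-wild lowest, and the log2 fold change against it was 1.60 (1.56 to 1.64) in OLFM4-knockout cells and 1.03 (0.98 to 1.07) in the library labelled OLFM4-active. FOSL1, which encodes FRA-1, had 212 counts in OLFM4-wild cells, 2336 in OLFM4-knockout cells and 2022 in the library labelled OLFM4-active. These correspond to 11.7 CPM (10.1 to 13.3), 45.5 CPM (43.7 to 47.4) and 84.6 CPM (81.0 to 88.4). FOSL1 was thus highest in the library labelled OLFM4-active, with no overlap between libraries, and had the widest spread of the 10 genes, 7.25-fold from lowest to highest. Its log2 fold change was 1.96 (1.76 to 2.17) in OLFM4-knockout cells, where 115 of 16600 genes averaging 1 CPM or more had a larger one, and 2.86 (2.65 to 3.07) in the library labelled OLFM4-active, where 27 had.

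FOSB, a close relative of FOS with a spliced form that lacks the activation domain, had 90.8 CPM (86.5 to 95.3) in OLFM4-wild cells, 172 CPM (169 to 176) in OLFM4-knockout cells and 216 CPM (209.7 to 222) in the library labelled OLFM4-active. Its log2 fold changes were 0.92 (0.85 to 0.9998) and 1.25 (1.17 to 1.33), and the counts do not separate its spliced forms. FOSL2, which encodes FRA-2, was highest in OLFM4-wild cells, with 5203 counts or 286 CPM (279 to 294). It had 122 CPM (119 to 125) in OLFM4-knockout cells and 156 CPM (151 to 161) in the library labelled OLFM4-active. FOSL2 was the 1 FOS gene that was lower in both, with log2 fold changes of -1.23 (-1.28 to -1.18) and -0.88 (-0.94 to -0.81).

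The JUN genes spanned 1.60-fold (JUN) to 2.13-fold (JUND) from the lowest library to the highest, against at least 2.35-fold (FOSL2) among the FOS genes, and JUNB went opposite ways in the 2 comparisons. JUN, whose protein is the strongest activator of the family, had 148 CPM (143 to 154) in OLFM4-wild cells, 238 CPM (233 to 242) in OLFM4-knockout cells and 209 CPM (204 to 215) in the library labelled OLFM4-active. Its log2 fold changes against OLFM4-wild were 0.68 (0.62 to 0.74) and 0.50 (0.43 to 0.57). JUND, which is kept at a steadier level in resting cells, had 32.5 CPM (29.9 to 35.2), 52.4 CPM (50.4 to 54.4) and 69.3 CPM (66.0 to 72.7) in the same order. JUND followed the order of FOSB and FOSL1, highest in the library labelled OLFM4-active, with log2 fold changes of 0.69 (0.56 to 0.82) and 1.09 (0.96 to 1.23). JUNB, a weaker activator that can restrain JUN, had 332 CPM (323 to 340.0) in OLFM4-wild cells, 468 CPM (462 to 473) in OLFM4-knockout cells and 228 CPM (222 to 234) in the library labelled OLFM4-active. It was therefore above OLFM4-wild in the first, by 0.50 on the log2 scale (0.46 to 0.54), and below it in the second, at -0.54 (-0.60 to -0.49).

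ATF3, EGR1 and IER2 did not share one direction. ATF3, a stress-induced factor that pairs with JUN proteins, had 400 counts or 22.0 CPM (19.9 to 24.3) in OLFM4-wild cells, 12.4 CPM (11.4 to 13.4) in OLFM4-knockout cells and 10.8 CPM (9.48 to 12.2) in the library labelled OLFM4-active. The intervals of these last overlapped, and both lay below OLFM4-wild, with log2 fold changes of -0.83 (-1.02 to -0.65) and -1.03 (-1.26 to -0.80). EGR1, a zinc finger factor, had 304 CPM (296 to 312) in OLFM4-wild cells, 196 CPM (192 to 199.9) in OLFM4-knockout cells and 385 CPM (377 to 393) in the library labelled OLFM4-active. EGR1 was thus lower in OLFM4-knockout cells, at -0.63 (-0.68 to -0.58), and higher in the library labelled OLFM4-active, at 0.34 (0.29 to 0.39), the reverse of JUNB. IER2, a nuclear protein of the immediate early response, had 83.5 CPM (79.3 to 87.8), 134 CPM (130.5 to 137) and 78.7 CPM (75.2 to 82.4) in OLFM4-wild cells, OLFM4-knockout cells and the library labelled OLFM4-active. Its log2 fold change was 0.68 (0.60 to 0.76) in OLFM4-knockout cells, and its interval of -0.18 to 0.01 in the library labelled OLFM4-active included 0, so that difference was not detectable at this depth.

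**Figure D1:**
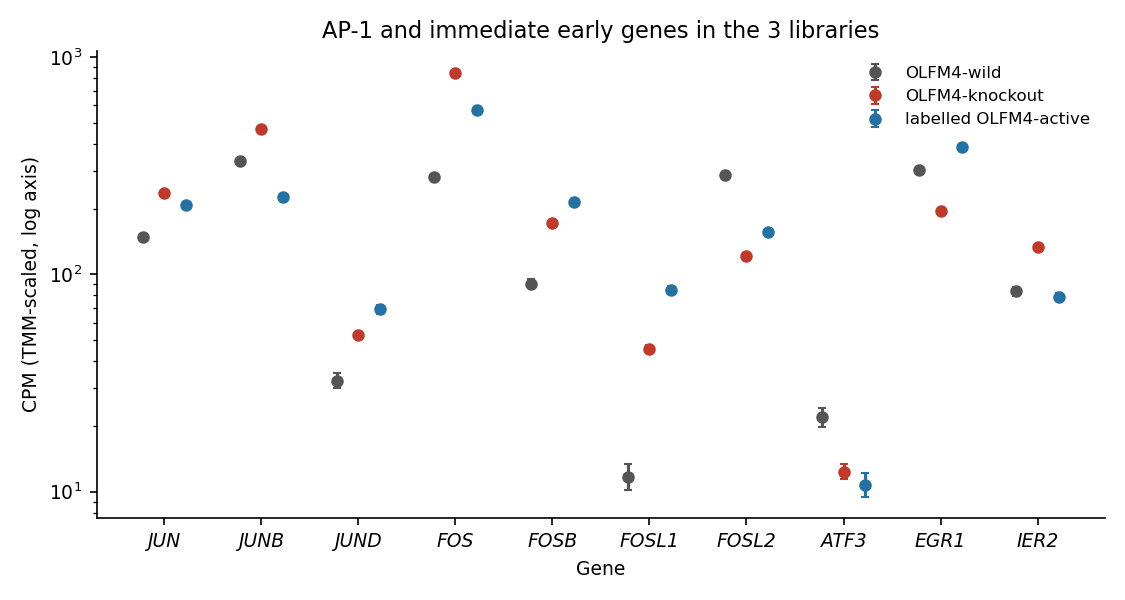
Level of each of the 10 genes, as TMM-scaled CPM on a log axis, in the OLFM4-wild (grey), OLFM4-knockout (red) and OLFM4-active-labelled (blue) libraries. Bars are exact 95% counting intervals of 1 library each, most of them smaller than the point; the OLFM4-wild point is lowest for JUN, JUND, FOS, FOSB and FOSL1 and highest for FOSL2 and ATF3.

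The first comparison asks how OLFM4-knockout cells differed from OLFM4-wild. Because there was no replicate spread, a gene was called when its log2 fold change passed 1 or -1, a 2-fold change. FOS and FOSL1 passed 1, or 2 of 10, where 5.77% of those 16600 genes did, and FOSL2 passed -1, or 1 of 10, where 7.56% did. All 10 genes met the filter, and the lowest level of any was the 10.8 CPM of ATF3 in the library labelled OLFM4-active. By counting error alone, 7 of the 10 had an interval above 0 throughout and 3 an interval below it, against 42.4% and 29.8% of all genes. At a log2 threshold of 2 none of the 10 was called, beside 0.663% of genes above and 1.44% below, and at 0.5 the counts were 6 above and 3 below, beside 23.6% and 18.6%. The median of the 10 was 0.68, beside 0.10 over all genes. With library totals in place of TMM every log2 fold change in this comparison was lower by 0.35, the median of all genes was -0.26, and the share of all genes past the thresholds became 2.22% above and 13.9% below. Each of the 10 kept its sign. FOS (1.25) and FOSL1 (1.61) still passed, FOSL2 was at -1.58, and ATF3 at -1.19 passed as well.

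In the library labelled OLFM4-active, compared with the same OLFM4-wild library, FOS, FOSB, FOSL1 and JUND passed 1, or 4 of 10, where 3.78% of all genes did. ATF3 passed -1, where 6.73% did. Intervals lay above 0 for 6 and below it for 3, the exception being IER2, against 35.2% and 28.1% of all genes. At a threshold of 2 FOSL1 alone was called, beside 0.506% above and 1.54% below, and at 0.5 the counts were 4 above and 3 below, beside 15.7% and 17.3%. The median of the 10 was 0.42, beside 0.05 over all genes. The calls of FOS (0.91) and JUND (0.98) were lost with library totals, which lowered every value here by 0.11, while no gene changed sign. The share of all genes past the thresholds was then 2.89% above and 8.36% below.

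**Figure D2:**
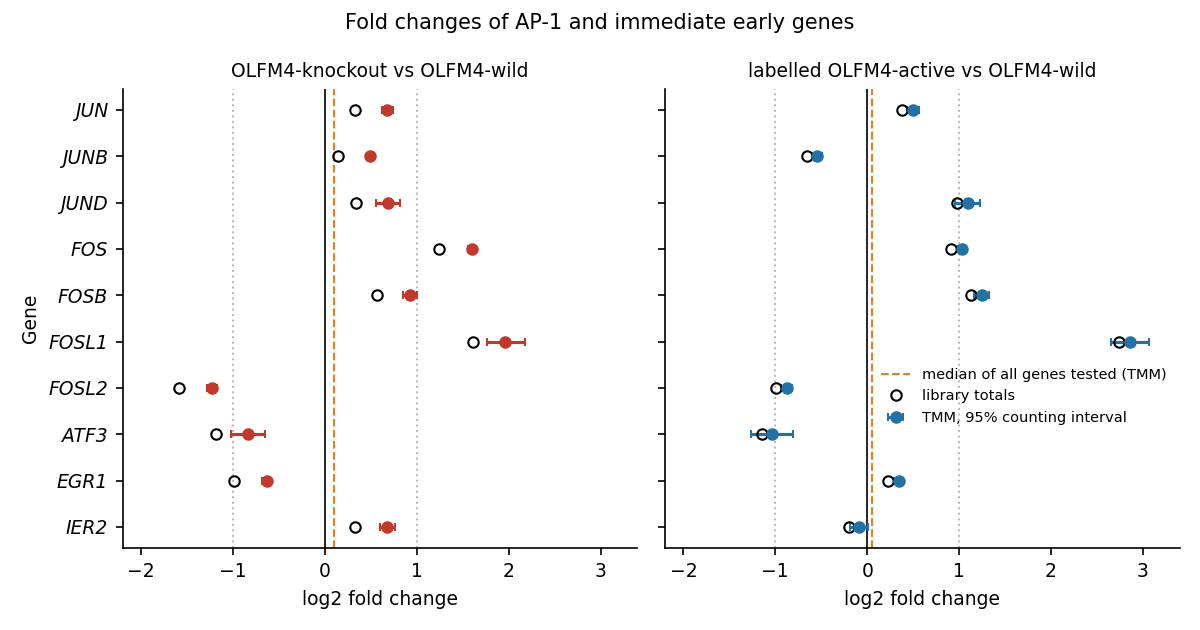
Log2 fold changes of the 10 genes against OLFM4-wild cells, which both panels share, in OLFM4-knockout cells (left) and the library labelled OLFM4-active (right). Filled points are TMM values with 95% counting intervals, open points use library totals, dotted lines mark 1 and -1, and the dashed line is the median of all genes tested; FOSL1 lies farthest right and FOSL2 and ATF3 lie left of 0 in both.

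To compare levels between genes, CPM were divided by the summed length of each gene's annotated exons in kilobases (RPKM). In OLFM4-wild cells JUNB was the most abundant of the 10 at 181 RPKM, followed by EGR1 at 96.8 and FOS at 87.9. FOS stood first in both other libraries, at 266 RPKM in OLFM4-knockout cells, where JUNB at 255 was close behind, and at 179 RPKM in the library labelled OLFM4-active. ATF3 was last in all 3, between 2.69 and 5.51 RPKM. Several neighbours in the order were within a few percent, such as JUN (40.9) and FOSL2 (40.0) in OLFM4-wild cells and JUNB (124) and EGR1 (123) in the library labelled OLFM4-active, a gap that the choice of exon length can set.

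Summed per length, the FOS genes made up 150.4 RPKM in OLFM4-wild cells, 338 in OLFM4-knockout cells and 285 in the library labelled OLFM4-active. The JUN genes summed to 239, 348 and 218 RPKM, so FOS to JUN gene RNA stood at 0.629, 0.971 and 1.31. FOS itself made up 58.4% of the FOS gene RNA in OLFM4-wild cells, 78.7% in OLFM4-knockout cells and 62.9% in the library labelled OLFM4-active. The 2 FRA genes changed places: FOSL2 went from 26.6% to 5.04% and 7.66%, and FOSL1 from 4.11% to 7.13% and 15.8%. Per length FOSL2 therefore exceeded FOSL1 in OLFM4-wild cells and was below it in the other two, at 17.0 against 24.1 RPKM in OLFM4-knockout cells. This order rests on exon lengths of 7162 bases for FOSL2 and 1887 for FOSL1, since in counts FOSL2 was above FOSL1 in every library. Among the JUN genes, JUNB held 75.8% in OLFM4-wild cells, 73.4% in OLFM4-knockout cells and 57.0% in the library labelled OLFM4-active, where JUN (26.5%) and JUND (16.5%) took larger shares than in OLFM4-wild (17.1% and 7.05%). These shares do not depend on the scaling between libraries, but they do depend on the exon lengths used.

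**Figure D3:**
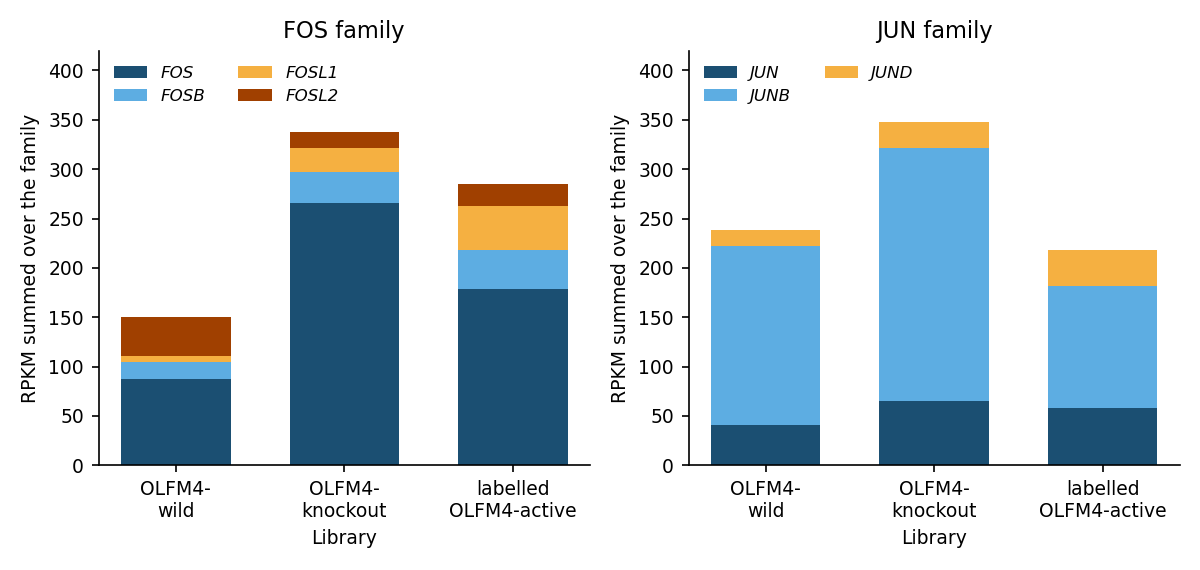
RNA of the FOS genes (left) and the JUN genes (right) summed per exon length, in RPKM, in each of the 3 libraries, with 1 library per bar. The FOS sum is 150.4, 338 and 285 RPKM, with the FOSL1 segment widening and the FOSL2 segment narrowing against OLFM4-wild, and JUNB is the largest JUN segment in every library.

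Genes with the most similar pattern were sought among 9652 other protein-coding genes averaging 10 CPM or more, by the Euclidean distance between their 2 log2 fold changes, which rests on 3 libraries only. Those nearest to FOS were VSIR (1.60 and 1.05), ABHD6 (1.64 and 1.01) and PRR7 (1.55 and 1.11), all within 0.0930. Nearest to FOSL1, within 0.443, were THBS2 (2.23 and 2.74), the matrix protein thrombospondin 2, EREG (2.28 and 2.75), the EGF receptor ligand epiregulin, and F3 (2.39 and 2.75), tissue factor.

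The counts for the lists that follow are to be set beside all 16600 genes, of which 5.77% passed 1 and 7.56% passed -1 in OLFM4-knockout cells (2.22% and 13.9% with library totals), and 3.78% and 6.73% in the library labelled OLFM4-active (2.89% and 8.36%). The medians of all genes were 0.10 and 0.05. Genes known as AP-1 targets were followed with a list of 20, of which 17 met the 1 CPM filter. Of these, 6 passed 1 and 2 passed -1 in OLFM4-knockout cells, with a median log2 fold change of 0.34, and 5 and 1 did so in the library labelled OLFM4-active, with a median of 0.14. With library totals the first comparison kept only 2 above, MMP1 and MMP3, and had 3 below, and its median was -0.02, and the second comparison had 4 above. MMP3, the protease stromelysin-1, had 5, 384 and 134 counts in OLFM4-wild cells, OLFM4-knockout cells and the library labelled OLFM4-active, and log2 fold changes of 4.63 (3.53 to 6.40) and 4.22 (3.09 to 5.995). MMP1, interstitial collagenase, had 3, 195 and 121 counts, and values of 4.31 (2.96 to 6.81) and 4.72 (3.36 to 7.24). Both stood under 1 CPM in OLFM4-wild and met the filter through the other libraries, so their call follows in part from the filter. Below the filter, MMP10 had 1, 35 and 19 counts, or 0.055, 0.68 and 0.80 CPM. MMP9, also below it, had 0.83, 0.45 and 0.50 CPM, and MMP13 had 0.44, 1.07 and 0.042 CPM. The MMP genes of the list thus did not share one direction. Of the 20 genes, 10 had a promoter entry, and TGANTCA was found in 5 of these, against 6.57% of all promoters. Among the 5 were MMP10, which was higher in CPM in both other libraries, and CXCL8 and SPRR1B, which were lower in both. CCND1, encoding cyclin D1, was higher by 1.07 in both, from 93.8 to 197 CPM each. At the other end, CXCL8, which encodes interleukin-8, had -1.04 (-1.55 to -0.52) and -2.01 (-2.89 to -1.24), and the cornified envelope gene SPRR1B had -1.10 and -0.79.

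Other immediate early genes were split. Of 34 listed, 32 met the filter, of which 5 passed 1 and 4 passed -1 in OLFM4-knockout cells and 5 and 5 did so in the library labelled OLFM4-active, with medians of -0.06 and 0.11, beside 0.10 and 0.05 for all genes. With library totals the median in OLFM4-knockout cells was -0.42, beside -0.26 for all genes, with 4 above and 5 below. RHOB, a small GTPase, was higher by 1.77 (1.67 to 1.87) and 1.37 (1.26 to 1.48). SGK1, the serum- and glucocorticoid-regulated kinase, had 1.62 (1.55 to 1.69) and 1.16 (1.09 to 1.23), and TRIB1 had 1.40 (1.28 to 1.52) and 1.28 (1.15 to 1.41). The orphan receptor gene NR4A3 had 6, 81 and 88 counts and values of 2.15 (1.07 to 3.74) and 3.37 (2.30 to 4.96), having met the filter through the other 2 libraries, whereas its relative NR4A2 had -1.36 (-1.81 to -0.91) in OLFM4-knockout cells. NFKBIA, the inhibitor of NF-kB, had -1.34 (-1.42 to -1.26) and -2.12 (-2.24 to -1.997), and the growth-restraining gene BTG2 had -1.32 and -1.46. IRF1, an interferon-response factor, had 31.5 CPM in OLFM4-wild cells and was lower in both others. It had 15.7 CPM in OLFM4-knockout cells and 9.21 CPM in the library labelled OLFM4-active, where its log2 fold change was -1.77.

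The other bZIP partners of AP-1 leaned lower. Of 11 listed, 8 met the filter and 7 of the 8 had a log2 fold change below 0 in each comparison, with medians of -0.44 and -0.36, and none passed 1. Of all genes 56.7% and 53.9% were above 0. With library totals all 8 were below 0 in each, where 5399 and 7325 of the 16600 genes were above it. MAF had -1.15 and -1.97, and ATF7 had -1.14 in OLFM4-knockout cells and 0.02 in the library labelled OLFM4-active. The BATF genes were near 0, with BATF listed at 0 counts in all 3 libraries.

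None of the 17 listed kinases and factors upstream of these genes passed 1 or -1 in either comparison, and their medians were -0.02 and 0.27, though with library totals MRTFB, a coactivator of SRF, was at -1.19 in OLFM4-knockout cells. SRF, encoding serum response factor, had 42.7, 65.5 and 74.6 CPM, with log2 fold changes of 0.62 (0.50 to 0.73) and 0.81 (0.68 to 0.93). MAP2K2, the kinase MEK2, had 0.95 in OLFM4-knockout cells, and MRTFB had the lowest value of the list there, -0.84. Of 12 cytoskeletal target genes of SRF, 11 met the filter. ACTG1, encoding gamma-actin, had 1.57 and 1.37, and FHL2 had 1.30 and 1.48. The list had 2 genes past 1 in OLFM4-knockout cells and 5 in the library labelled OLFM4-active, with medians of 0.67 and 0.81 and none past -1, beside 5.77% and 3.78% of all genes past 1. With library totals 1 and 4 passed, FHL2 at 0.95 being lost in OLFM4-knockout cells, and the medians were 0.32 and 0.69. TPM1 was at the low end, with -0.63 and -0.71.

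Heat shock genes, which cell stress can switch on together with immediate early genes, were mostly higher in the same libraries, 9 of 11 in OLFM4-knockout cells (8 with library totals) and 11 of 11 in the library labelled OLFM4-active, where 56.7% and 53.9% of all genes were. All 11 met the filter, and 5 passed 1 in the first comparison and 2 in the second, beside 5.77% and 3.78% of all genes, with medians of 0.99 and 0.58. With library totals 1 passed in the first comparison, beside 2.22% of all genes, at a median of 0.63. HSPA8, the constitutive HSC70 chaperone, went from 465 CPM in OLFM4-wild to 2483 and 1912 CPM, a log2 fold change of 2.42 (2.38 to 2.45) and 2.04 (2.01 to 2.07). The stress-induced HSPA1B, whose near-identical copy HSPA1A makes uniquely mapped counts uncertain, had 1.29 (1.17 to 1.41) and 0.26 (0.12 to 0.40), and HSPH1 had 1.34 and 1.42. At the low end in OLFM4-knockout cells were BAG3 (-0.10) and HSP90AA1 (-0.06), which had 0.13 and 0.93 in the library labelled OLFM4-active. HSPB1 went from 557 CPM in OLFM4-wild to 1288 in OLFM4-knockout cells and 615 in the library labelled OLFM4-active. The part of the heat shock genes in the values of the 10 genes was not tested.

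**Figure D4:**
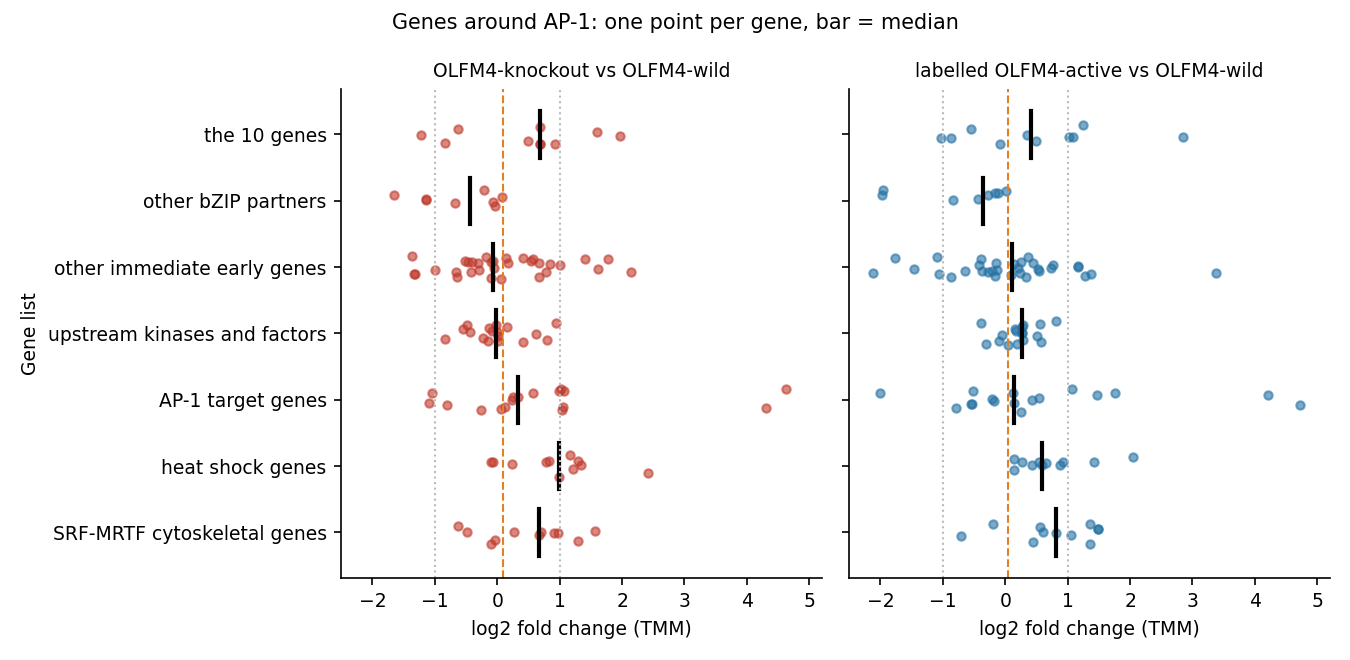
Log2 fold change (TMM) of each gene averaging 1 CPM or more, by list, in OLFM4-knockout cells (left) and the library labelled OLFM4-active (right) against the shared OLFM4-wild library. Black bars are list medians, dotted lines mark 1 and -1 and the dashed line is the median of all genes tested; the 10 genes span from FOSL2 or ATF3 on the left to FOSL1 on the right, and the points beyond 4 are MMP1 and MMP3.

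The annotation places the 10 genes, in GRCh38, on chromosome 1 (JUN from 58776845 to 58784048, ATF3 from 212565334 to 212620777), 2 (FOSL2 from 28392448 to 28417317), 5 (EGR1 from 138465479 to 138469303), 11 (FOSL1 from 65892049 to 65900573), 14 (FOS from 75278826 to 75282230) and 19 (JUNB from 12791486 to 12793315, IER2 from 13150411 to 13154911, JUND from 18279694 to 18281622 and FOSB from 45467995 to 45475179). JUNB and JUND have 1 exon each. No gene on the same strand shares exon bases with any of them. HOOK2 on the opposite strand shares 259 exon bases with JUNB, and the antisense transcript ENSG00000267598 shares 946 with IER2, with 948, 4401 and 1167 counts of its own, and the counting used strand.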

How the data were processed

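Bulk RNA of RWPE1 cells was sequenced, after ribosomal depletion, with a stranded paired-end kit, 1 library per genotype. The authors aligned reads to GRCh38 with HISAT2 and deposited the raw counts per gene that featureCounts gave for uniquely mapped pairs on the reverse strand. Identifiers were matched without their version to GENCODE 44, which held 98.1% of them and all 10 genes.

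TMM factors (1.11, 0.872 and 1.03 for OLFM4-wild, OLFM4-knockout and OLFM4-active) came from edgeR 4.0.16 in R 4.3.3. Log2 fold changes follow voom with an offset of 0.5 counts, with conditional Clopper-Pearson intervals from scipy 1.17.1. A floor of 3 counts is 0.165, 0.0584 and 0.126 CPM. Alternatives were library totals, size factors of DESeq2 1.42.0, upper quartile factors, other offsets, filters and thresholds, leaving the 10 most abundant genes out of library sizes, and thinning to 16309906 counts. The procedure was tested on simulated counts with counting error and changes of known size. These hold no spread between cultures, so they cannot show how such spread affects the values here.

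The 10 genes and the lists were chosen with earlier results of these data known. The text names the 10 genes, OLFM4, overlapping genes and the 3 genes nearest to FOS and FOSL1. From each list it names the 3 highest and 3 lowest genes at most. Also named are MMP9, MMP10, MMP13, BATF and the marker genes, picked after their values were seen. A few genes that these choices cover are not reported here.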

Additional observations from a re-analysis of the deposited data

How the results depend on the processing

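Over 140 log2 fold changes of the 10 genes under the 7 alternatives of scaling, offset or thinning, none changed sign, and 107 stayed within the counting interval of the reported value. With library totals the OLFM4-knockout comparison had 2 genes below -1 in place of 1, and the OLFM4-active comparison 2 above 1 in place of 4. Library sizes without the 10 most abundant genes added FOSB above 1 in OLFM4-knockout cells, for 3. Thinning left 0 genes below -1 in the OLFM4-active comparison, ATF3 being at -0.94. At a threshold of 2, the OLFM4-knockout comparison had 0 above and 0 below and the OLFM4-active comparison 1 above and 0 below. At 0.5 the counts were 6 above and 3 below, and 4 above and 3 below. Of 98 list medians, 4 changed sign: with library totals, that of AP-1 target genes in OLFM4-knockout cells (-0.02) and that of other immediate early genes in the library labelled OLFM4-active, and, without the 10 most abundant genes, those of other immediate early genes (0.03) and upstream kinases and factors (0.08) in OLFM4-knockout cells. No paired analysis was possible because each genotype has 1 library. Low counts in OLFM4-wild cells leave wide intervals for MMP1, MMP3, MMP10 and NR4A3, and the lack of replicates limits every value.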
